A study of Anser cygnoides with 12 samples.

Results

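The jejunum of 4 geese fed a diet with 21.8% wheat germ (LWG) was compared with that of 8 geese at the ends of the dose range, 4 fed the corn and soybean meal control diet (Con) and 4 fed 43.6% wheat germ (HWG). The LWG geese were taken as the 4 samples labelled LWG, out of 12 in all, and each gene was tested as LWG minus the mean of the Con and HWG groups. All were female Sichuan white geese, 250 days old at the start, fed for 12 weeks and picked at random within their group, and RNA was sequenced from jejunal tissue that held epithelium, stroma, vessels and muscle together. Wheat germ took the place of soybean meal, brans, rapeseed meal and soybean oil, so these also decreased as the dose increased. A response that follows the dose puts LWG between Con and HWG, and the comparison here looks for the other kind, in which LWG is the highest or the lowest group.

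The small intestine is lined by a sheet of epithelial cells that are born in crypts, move up the villus and are shed at its tip. Most of them are absorptive enterocytes, which carry the digestive enzymes and transporters of the brush border, and the rest include mucus-producing goblet cells, hormone-producing cells and, in humans, a rare cell type marked by BEST4 that handles chloride, bicarbonate and protons. Beneath the epithelium, fibroblasts deposit collagen and other matrix proteins around blood and lymph vessels and send growth signals to the crypts.

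The deposited table held, for each goose, whole-number counts of 18007 genes with their FPKM values, and the counts of a library summed to between 40159187 and 45686956. Levels are given as CPM, counts relative to library sizes that were scaled by TMM, a trimmed mean that lessens the weight of a few abundant genes, and 14863 genes passed edgeR's filter on low counts and were tested. GATA4, a transcription factor of the upper small intestine, was under 3 CPM in 5 of the 12 geese, LWG replicates 1 and 2, Con replicates 2 and 4 and HWG replicate 4, and HOXA10, a gene of the lower gut, was higher than GATA4 in the same geese. The pieces labelled jejunum thus differed in these markers of gut position within every group, and results are also given within the 7 geese with more GATA4 and the 5 with more HOXA10. In tissue pieces of this kind, fewer cells of a type and less RNA per cell cannot be told apart.

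No gene was called higher and none lower in LWG at an adjusted p under 0.05 by edgeR's quasi-likelihood F-test with Benjamini-Hochberg adjustment. The smallest adjusted p was 0.0919, and 7 genes were under 0.25. At an unadjusted p under 0.05, 767 genes (5.16%) were higher and 765 (5.15%) lower in LWG, 1532 together (10.3%), while DESeq2 called 45 genes higher and 45 lower at an adjusted p under 0.05. Fewer genes passed between the ends of the range: at an unadjusted p under 0.05, 316 genes (2.13%) were higher and 303 (2.04%) lower in HWG than in Con, 619 together (4.16%), and none had an adjusted p under 0.05, the smallest being 0.858 from edgeR. That comparison is less precise, with a median standard error of 0.273 against 0.236 for LWG against the others. The median absolute log2 fold change was 0.210 for HWG over Con and 0.216 for LWG against the others. As the precision differed, neither these medians nor the counts alone show whether Con and HWG are more alike. Compared with Con alone, 985 genes (6.63%) differed in LWG at an unadjusted p under 0.05, and compared with HWG alone, 1569 (10.6%), 2 comparisons that share the LWG geese.

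A gene was taken as extreme at LWG when LWG differed from Con and from HWG in the same direction, each at an unadjusted p under 0.05. This held for 188 genes that were higher (1.26% of those tested) and 225 that were lower (1.51%), 413 in all (2.78%). Of the 767 higher genes, a further 142 differed from Con only, 348 from HWG only and 89 from neither; of the 765 lower genes, 207 differed from Con only, 281 from HWG only and 52 from neither. The median log2 fold change of the extreme genes, LWG over the mean of Con and HWG, was 0.88 for the higher and −0.76 for the lower genes, and 77 and 44 of them lay beyond a 2-fold difference. Their median difference between HWG and Con was −0.02 and 0.03 on the log2 scale. These medians follow from the choice of the genes and are given as a description.

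At the edge of the rule, ATG9A, at 48.8 ± 9.53 CPM in LWG against 34.9 ± 10.3 in Con and 32.4 ± 6.77 in HWG (SD, n = 4 each), was just inside and CDYL2, at 13.4 ± 5.01 against 8.42 ± 2.30 and 7.21 ± 1.83, just outside. Among lower genes, MKX, at 2.13 ± 0.28 CPM in LWG against 3.78 ± 1.02 in Con and 3.99 ± 2.34 in HWG, was just inside, and DHX35, at 14.3 ± 2.70 against 19.8 ± 2.67 and 19.0 ± 2.97, just outside.

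**Figure D1:**
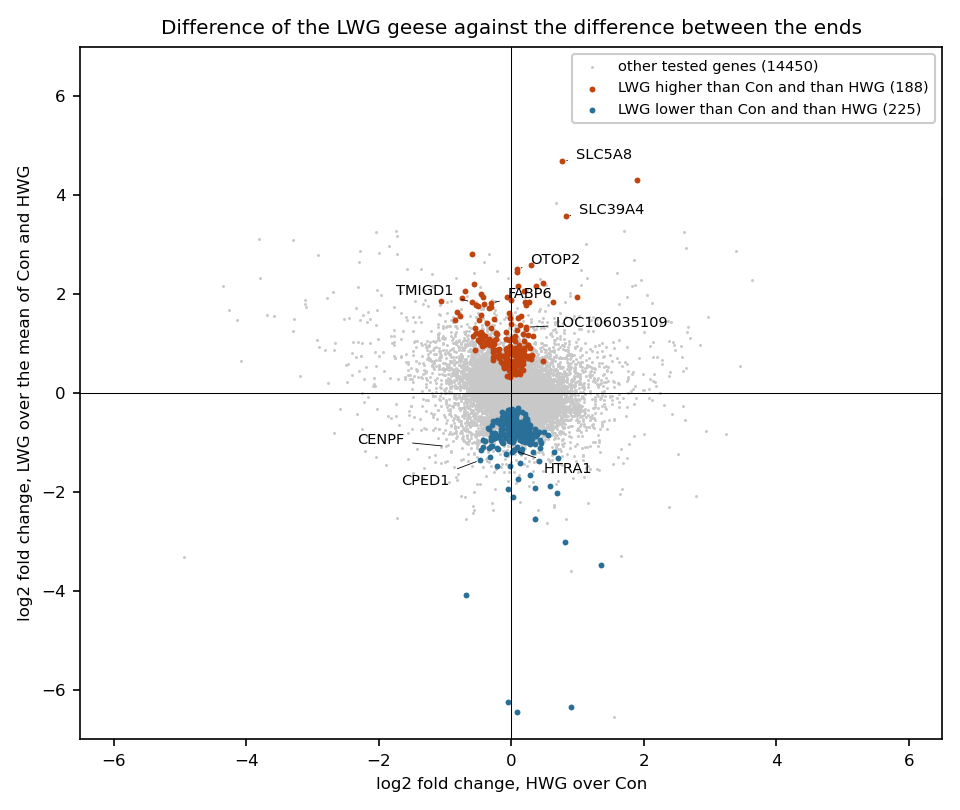
Each point is a tested gene, with the log2 fold change of HWG over Con on the x axis and that of LWG over the mean of Con and HWG on the y axis. The 188 higher (orange) and 225 lower (blue) genes extreme at LWG lie mostly near the vertical line where HWG and Con are alike, which the rule favours but does not require. At an unadjusted p under 0.05, HWG and Con differed for 1 of the higher and 1 of the lower genes.

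All 4 LWG geese lay above all 8 others for 44 genes (0.296%) and below them for 76 genes (0.511%), 120 in all (0.807%), and 30 and 56 of these were among the extreme genes. No LWG goose alone held the highest or the lowest level throughout the set. Of the 188 higher genes, LWG replicates 1, 2, 3 and 4 had the highest level of the 12 geese for 38, 40, 69 and 41, and of the 225 lower genes, they had the lowest level for 39, 74, 54 and 49. Leaving out 1 library at a time, the direction held for all 413 genes with 1 exception in 1 of the 12 fits, while between 226 and 375 of them stayed extreme. As these geese also chose the genes, the shares per goose and the kept directions are a description and no separate evidence.

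The gene with the smallest p was LOC106035109, which the table leaves without a description and which was picked out after its values were seen. It stood at 21.0, 25.1, 32.0 and 34.2 CPM in the LWG geese, against 9.18, 9.23, 13.3 and 9.56 in the Con geese and 8.54, 13.7, 13.4 and 12.5 in the HWG geese. The LWG geese lay well above all others, and LWG was higher by 1.33 on the log2 scale, with a standard error of 0.18 and an edgeR adjusted p of 0.0919. Over the 12 fits that leave out a library, its adjusted p ran between 0.0395 and 0.339.

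Among the 12 named genes with the smallest p that were higher in LWG, 6 had no overlap between LWG and the other geese. Over all tested genes this share was 0.296%, and picking genes for a small p favours it. TMIGD1, an adhesion protein of the enterocyte brush border, had 1049, 1187, 886 and 961 CPM in LWG geese, against 209.8, 225, 655 and 308 in Con geese and 147, 133, 427 and 219 in HWG geese. The LWG geese did not overlap with the others, and the difference was 1.84 on the log2 scale, with a standard error of 0.34 and an edgeR adjusted p of 0.234. SLC6A4, the serotonin transporter, which ends serotonin signalling by taking it up into epithelial cells, had 51.6, 51.9, 83.6 and 89.3 CPM in LWG geese, against 23.8, 16.7, 34.4 and 31.7 in Con and 8.74, 17.6, 39.5 and 22.9 in HWG geese. Again each LWG goose was above each of the others (log2 fold change 1.51, adjusted p = 0.346 from edgeR).

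NEURL1, a ubiquitin ligase known for its part in Notch signalling, had 33.9, 27.9, 37.5 and 29.8 CPM in LWG geese, against 12.2, 11.2, 12.1 and 21.7 in Con and 16.1, 10.4, 14.9 and 18.1 in HWG geese, with no overlap and a difference of 1.15 on the log2 scale (edgeR adjusted p = 0.209). The receptor subunit IL20RA, through which cytokines of the interleukin-20 family act on epithelium, ran between 24.4 and 90.2 CPM in LWG geese and between 9.58 and 24.2 in the other 8 (log2 fold change 1.53, or 1.004 without LWG replicate 4). PMAIP1 (NOXA), a cell death gene induced by p53, and SLC12A8, a solute carrier, were also without overlap, at 8.82 ± 2.18 CPM in LWG against 3.24 ± 1.30 in Con and 3.56 ± 1.19 in HWG, and at 27.2 ± 6.95 CPM in LWG against 15.1 ± 1.62 in Con and 15.9 ± 1.84 in HWG (SD, n = 4 each).

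For TSPAN1, SEC16B, FAM3B, CLCN1, SLC5A8 and BEST4, the groups overlapped. TSPAN1, a tetraspanin of epithelial cells, averaged 365 ± 84.8 CPM in LWG against 184 ± 47.9 in Con and 156 ± 51.5 in HWG. SEC16B, which takes part in protein export from the endoplasmic reticulum, averaged 66.4 ± 29.7 CPM in LWG against 28.2 ± 12.4 and 20.1 ± 7.12, and FAM3B, a secreted cytokine-like protein, 92.4 ± 37.3 CPM in LWG against 44.7 ± 17.2 and 30.6 ± 10.7. Adjusted p-values of these 12 genes were between 0.209 and 0.346 in edgeR.

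**Figure D2:**
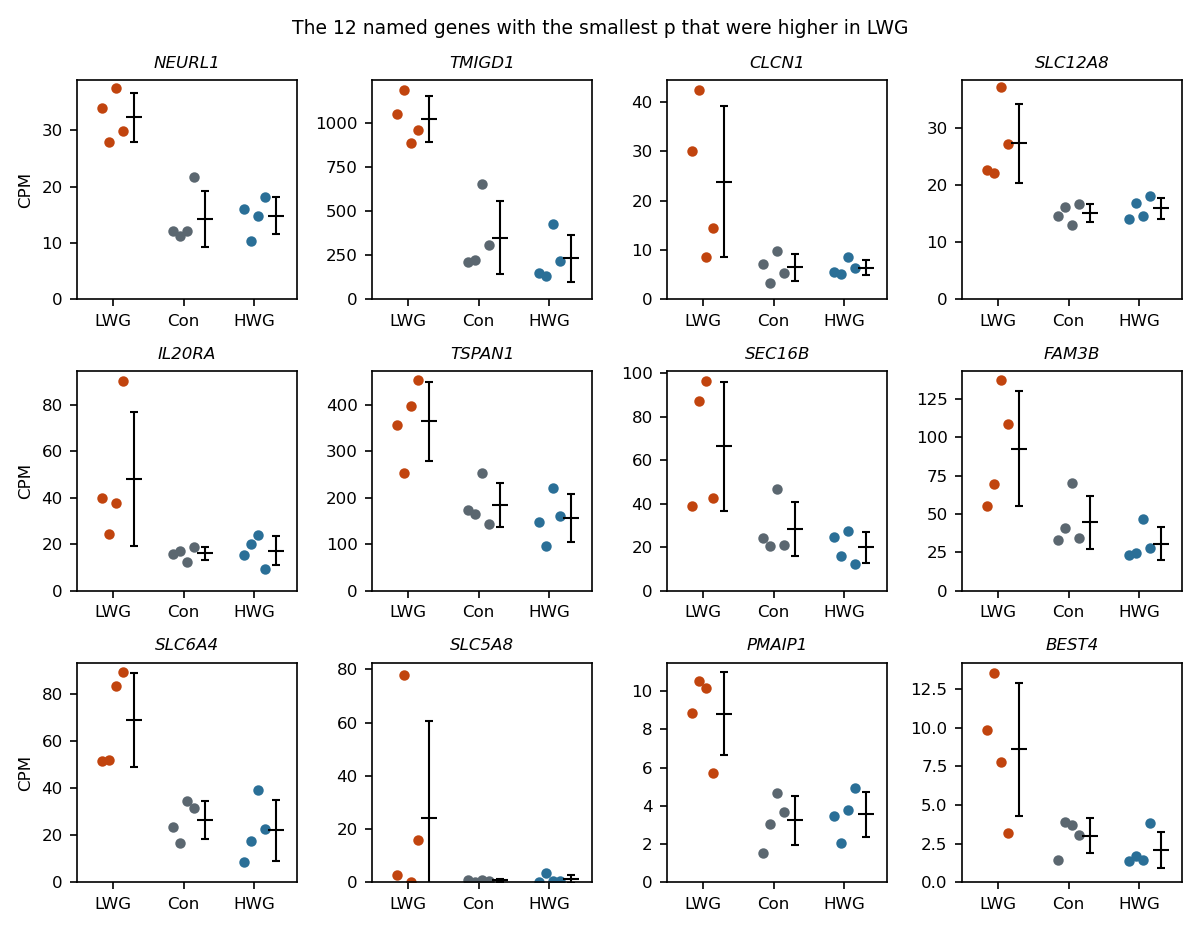
Level in CPM (y axis, linear, from 0) of the 12 named genes with the smallest p that were higher in LWG, 1 point per goose, with the mean and SD (n = 4) beside each group. For NEURL1, TMIGD1, SLC12A8, IL20RA, SLC6A4 and PMAIP1, the 4 LWG geese lie above the 8 others, while for SLC5A8 the LWG mean rests mainly on 1 goose at 77.9 CPM, and its lower error bar would pass below 0.

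Genes that mark BEST4 cells in humans were high in the same LWG goose. BEST4, a chloride and bicarbonate channel, had 9.83, 13.6, 7.80 and 3.21 CPM in LWG geese, against 1.43, 3.91, 3.69 and 3.07 in Con and 1.37, 1.72, 1.45 and 3.82 in HWG geese. OTOP2, a proton channel, had 21.9, 42.4, 11.4 and 5.39 CPM in LWG geese, against 1.40, 1.98, 4.27 and 6.11 in Con and 0.994 to 7.53 in HWG geese, and CA7, a carbonic anhydrase, 52.8, 205, 36.3 and 108 CPM in LWG geese, against 23.9 to 43.6 in Con and 13.7 to 39.9 in HWG geese. All 3 were extreme at LWG (log2 fold changes 1.77, 2.51 and 1.75, adjusted p = 0.346 each from edgeR), and for each LWG replicate 2 was the highest of the 12 geese. That goose had GATA4 at 0 CPM and HOXA10 at 30.8 CPM, and the part of gut position was not tested.

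Without LWG replicate 2 the fold changes were 1.45 for BEST4, 1.85 for OTOP2 and 1.12 for CA7. The chloride channel CLCN1, at 30.0, 42.5, 8.49 and 14.5 CPM in LWG geese against 3.42 to 9.87 in Con and 5.05 to 8.61 in HWG geese, and SLC5A8, a sodium-coupled carrier of short-chain fatty acids, at 2.84, 77.9, 0.307 and 16.1 CPM against 0.191 to 1.08 and 0.266 to 3.38, were likewise highest in that goose. SLC5A8 overlapped with the other groups in LWG replicates 1 and 3, and its log2 fold change was 4.69, or 2.74 without LWG replicate 2. Of 9 genes that mark BEST4 cells in humans, 5 were in the table and tested. The other 2 did not follow: CFTR had a log2 fold change of 0.14 and NOTCH2 one of −0.19. CFTR also took a negative value under some settings, −0.08 in the geese with more GATA4 and −0.04 without LWG replicate 2. CA7 and CFTR were added after their values were seen.

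Over the 27 tested genes for zinc, anion and proton transport, 10 were higher and 2 lower in LWG at an unadjusted p under 0.05, 5 were extreme and higher (SLC39A4, CLCN1, OTOP2, CA4 and BEST4), and the median log2 fold change was 0.59 (1.01 without HWG replicate 3), against 0.00 over all tested genes. Here and in the lists below, counts are to be read beside the 5.16% higher and 5.15% lower over all tested genes. For extreme members these shares were 1.26% higher and 1.51% lower. For members without overlap they were 0.296% higher and 0.511% lower. The lists were chosen with earlier results of these data known. SLC39A4, CLCN1 and OTOP2 are among the genes the study had picked on these geese, as are TMIGD1, PMAIP1 and others in the lists below. List counts above these shares are therefore no independent evidence. CA4, a carbonic anhydrase of the brush border, was the member without overlap, at 79.7, 62.5, 133 and 119 CPM in LWG geese against 11.2 to 57.0 in Con and 18.8 to 48.9 in HWG geese. The zinc importer SLC39A4 was near the limit of detection, at 1.14, 0.197, 7.72 and 3.69 CPM in LWG geese, against 0, 0.383, 0.152 and 0.245 in Con and 0.443, 0.725, 0.234 and 0 in HWG geese. Members that did not differ from both groups but passed an unadjusted p of 0.05 were SLC39A14, CLCN2, SLC26A3, CA9 and SLC9A2, which were higher, and SLC26A4 and AQP9, which were lower.

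FABP6, SLC51A and SLC51B, which handle bile acids, were extreme and higher at LWG. In the lower small intestine, bile acids are taken up from the gut, carried through the cell by FABP6 and passed to the blood by the SLC51A and SLC51B pair. FABP6 had 7666, 7546, 15429 and 22451 CPM in the LWG geese, against 3983, 3315, 4637 and 4778 in the Con geese and 3226, 4978.4, 4638 and 693 in the HWG geese. Each LWG goose was above each of the others, the difference being 1.82 on the log2 scale with a standard error of 0.43 (edgeR adjusted p = 0.346), and the value was 2.13 in the geese with more GATA4 and 2.17 in those with more HOXA10.

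SLC51B had 22.0, 41.2, 221 and 177 CPM in LWG geese, against 12.7 to 26.4 in Con and 5.30 to 68.2 in HWG geese, and SLC51A had 97.4, 157, 331 and 282 CPM, against 82.1 to 159 and 55.7 to 127. LWG replicates 3 and 4 were well above all others for the pair, while replicates 1 and 2 were among them. FGF19, the hormone that the intestine releases on bile acid uptake, had 12.0, 2.19, 238 and 51.1 CPM in LWG geese, against 3.61, 1.93, 71.4 and 1.08 in Con and 1.79, 1.72, 18.8 and 1.37 in HWG geese. Its log2 fold change of 2.82 was 1.02 without LWG replicate 3.

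The apical uptake carrier SLC10A2 was at 162, 221, 31.0 and 33.5 CPM in LWG geese, against 1.203 to 107 in Con and 3.45 to 61.9 in HWG geese. It was not extreme, and its log2 fold change of 1.76 was −0.13 within the geese with more GATA4 and 2.76 within those with more HOXA10. Of 11 tested members of the bile acid list, 4 were higher at an unadjusted p under 0.05, 3 were extreme and 10 had a positive log2 fold change, with a median of 0.86. The summed level of the list was 8399 to 23864 CPM in LWG geese, against 3853 to 5726 in Con and 1131 to 5639.9 in HWG geese, and most of it was FABP6.

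In the enterocyte list, all 28 tested members had a positive log2 fold change, with a median of 0.85 (1.28 without HWG replicate 3), and 8 passed an unadjusted p of 0.05 against the mean of the other groups (FABP1, ANPEP, DPP4, ENPEP, TMIGD1, MYO1A, CREB3L3 and HNF4A). Against HWG alone 8 members passed and against Con alone 2, beside 10.6% and 6.63% over all tested genes, and TMIGD1 was the only extreme member. ANPEP, a brush border aminopeptidase, was at 3857, 5591, 5766 and 3598 CPM in LWG geese, against 1914, 1220.3, 4886 and 922 in Con and 1258, 764, 3504 and 1127 in HWG geese, with Con replicate 3 inside the LWG range and HWG replicate 3 just below it. FABP1, which binds fatty acids, was at 348 to 3351 CPM in LWG against 47.2 to 539 in Con and 24.2 to 972 in HWG, and its log2 fold change of 2.30 was 1.06 without LWG replicate 4.

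EPCAM, an adhesion protein of all gut epithelial cells, had a log2 fold change of 0.23 (1272 ± 192 CPM in LWG against 1174 ± 370.1 in Con and 1003 ± 391 in HWG, SD, n = 4 each). The summed level of the enterocyte list was 21489 to 35791 CPM in LWG geese, against 8001 to 33168 in Con and 6630.4 to 28761 in HWG geese, and its part in the other differences was not tested.

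Among the 19 tested tight junction genes, OCLN and TJP3 were higher without overlap. OCLN (occludin) was at 106, 123, 90.8 and 109 CPM in LWG geese, against 68.9 to 79.6 in Con and 37.1 to 77.1 in HWG geese, and TJP3, a scaffold of the junction, at 90.5, 105, 89.8 and 95.1 CPM, against 54.6 to 77.0 and 38.6 to 84.8. The gap to the highest of the others was narrow for both. CGNL1 was lower and extreme (26.1 ± 4.33 CPM in LWG against 42.4 ± 10.5 in Con and 35.0 ± 1.57 in HWG), JAM3 had an unadjusted p under 0.05 in the same direction, and the list median was 0.30, or 0.15 without LWG replicate 4. A gene that the table describes as an intestinal mucin-like protein, LOC106042592, picked out after its values were seen, had 1678, 1360.3, 1628 and 1778 CPM in LWG geese, against 646, 485, 841 and 489 in Con and 279.8, 511, 1175 and 494 in HWG geese, with no overlap. Of 14 tested genes of secretory cells, 1 was higher at an unadjusted p under 0.05, the hormone gene CCK.

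Lower in LWG were genes of the stroma beneath the epithelium. HTRA1, a secreted protease that acts on matrix proteins, had 116, 102, 74.0 and 93.7 CPM in LWG geese, against 253, 193, 173 and 229.8 in Con and 284, 198, 168 and 223 in HWG geese. CPED1, whose function is little known, had 30.1, 27.1, 27.8 and 22.8 CPM in LWG geese, against 77.4, 91.1, 42.4 and 114 in Con and 72.3, 52.1, 48.8 and 61.9 in HWG geese. THBS1 (thrombospondin), a matrix protein that restrains vessel growth, had 336, 229.8, 258 and 269.8 CPM in LWG geese, against 532, 461, 424 and 609 in Con and 609, 593, 456 and 562 in HWG geese.

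For all 3, every LWG goose was below every other goose, and for CPED1 the LWG values lay close together. The log2 fold changes were −1.16 (standard error 0.18, adjusted p = 0.180), −1.36 (0.23, adjusted p = 0.209) and −0.96 (0.17, adjusted p = 0.209 from edgeR). PLXDC2, a membrane receptor, had 15.7, 10.02, 11.6 and 10.8 CPM in LWG geese against 21.4 to 32.1 in Con and 19.7 to 35.6 in HWG geese, also without overlap.

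The fibroblast and matrix list had 47 tested members, of which 25 were lower and 1, PI16, higher at an unadjusted p under 0.05. Extreme and lower were 13 of them, COL5A2, COL14A1, FBLN2, DCN, MGP, THBS1, HTRA1, PLXDC2, CPED1, LOX, MMP2, IGFBP3 and C7, a share of members to be read beside the 1.51% over all tested genes. Of the list, 6 were lower without overlap, beside 0.511% over all tested genes. The median was −0.61 over the list, −0.50 in the geese with more GATA4 and −0.58 in those with more HOXA10. Among the extreme members, MMP2, a gelatinase, averaged 169 ± 52.1 CPM in LWG against 280.1 ± 75.4 in Con and 311 ± 58.5 in HWG, and DCN (decorin), which binds collagen fibrils, 160.1 ± 39.1 CPM against 257 ± 82.3 and 294 ± 84.6 (SD, n = 4 each). MGP, an inhibitor of calcification, was at 39.3 to 68.5 CPM in LWG against 81.9 to 129.9 in Con and 62.1 to 249 in HWG. HTRA1, CPED1, THBS1, PLXDC2 and MGP are among the genes the study had picked on these geese, and its Results list them as up-regulated in LWG. All of them are among the 13 extreme members, so the share of extreme members is no independent evidence. The directions given here are those of the deposited counts under the group labels.

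By the table's own GO terms, looked up after the values were seen, 9 of 56 tested genes of the extracellular matrix (16.1%) were extreme and lower and 0 were extreme and higher, and 4 of 29 genes of the collagen trimer (13.8%) were lower. The shares were smaller for the GO term extracellular space, 15 of 442 (3.39%), and for the pathway ECM-receptor interaction, 7 of 146 (4.79%). DCN, COL14A1, FBLN2, MMP2 and MGP belong both to the extracellular matrix term and to the list above, so the 2 are not independent. Many members of the list differed more from HWG than from Con: 31 were lower than in HWG and 14 lower than in Con at an unadjusted p under 0.05, and the median was −0.80 against HWG and −0.38 against Con. Over all tested genes, 10.6% differed from HWG and 6.63% from Con in either direction. The summed level of the list was 5958 to 7158 CPM in LWG geese, against 5754 to 11176 in Con and 7508 to 14148 in HWG geese, so LWG overlapped with Con and lay below HWG.

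**Figure D3:**
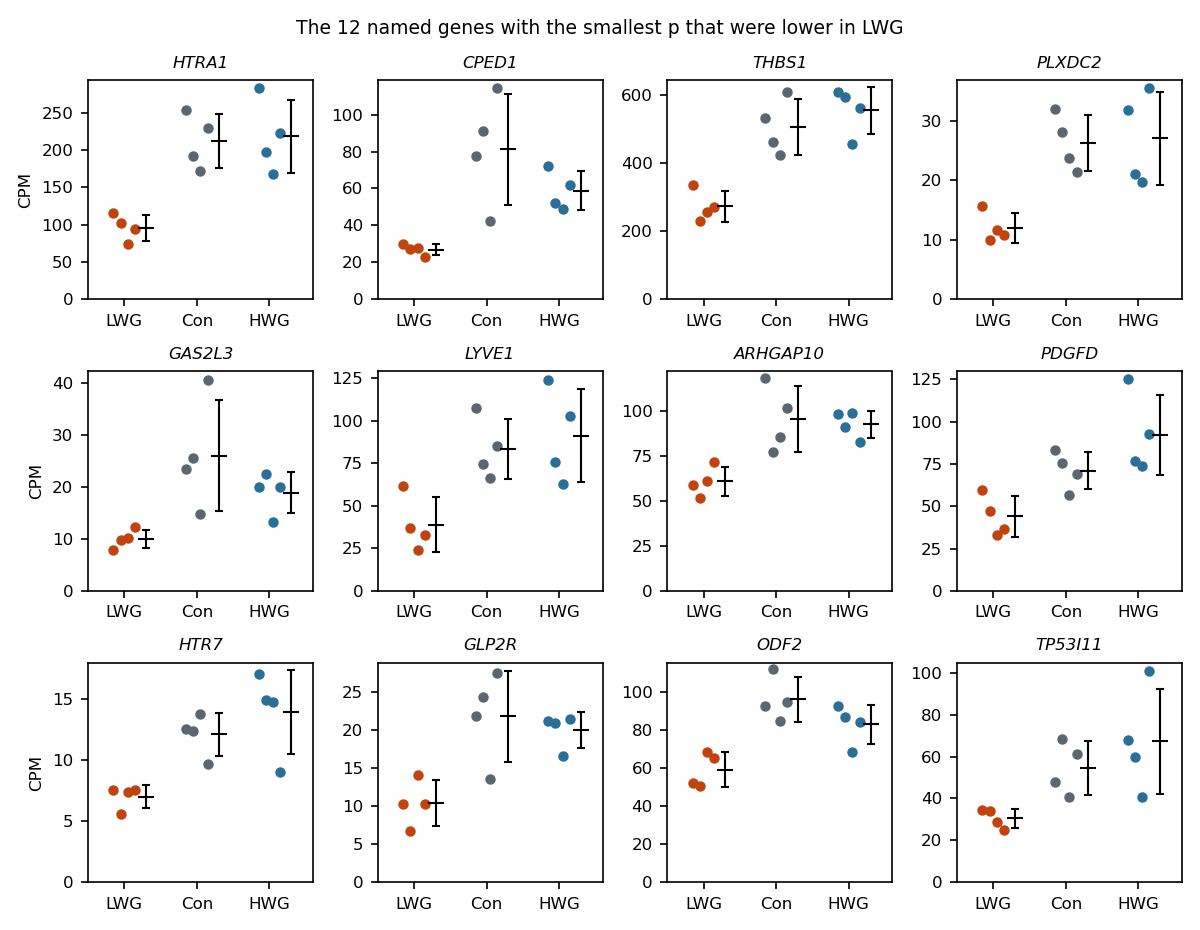
Level in CPM (y axis, linear, from 0) of the 12 named genes with the smallest p that were lower in LWG, 1 point per goose, with the mean and SD (n = 4) beside each group. The 4 LWG geese lie below the 8 others for 9 of the 12, and for PDGFD, GLP2R and ODF2 1 LWG goose in each crosses into the others. Over all tested genes 0.511% lie below without overlap, and picking genes for a small p favours it.

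Among vessel genes, LYVE1, a hyaluronan receptor of lymph vessels, had 61.5, 37.3, 23.8 and 33.1 CPM in LWG geese, against 107, 74.7, 66.7 and 85.1 in Con and 124, 75.8, 63.0 and 103 in HWG geese. CDH5, the cadherin of endothelial junctions, had 37.4, 27.8, 19.1 and 26.8 CPM in LWG geese, against 46.01, 39.7, 43.8 and 42.2 in Con and 65.7, 50.4, 39.6 and 69.4 in HWG geese. Neither overlapped with the other groups, although LWG replicate 1 came near them for both (log2 fold changes −1.17 and −0.82, adjusted p = 0.346 each from edgeR).

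Of 23 tested vessel genes, 12 were lower and 0 higher at an unadjusted p under 0.05, 5 were extreme (PECAM1, CDH5, LYVE1, SOX18 and EDNRB), and the median was −0.50. The summed level was 529 to 836 CPM in LWG geese, against 668 to 967 in Con and 761 to 1071 in HWG geese. A receptor that the table describes as kdr-like, of the VEGF receptor family, LOC106038554, was at 360.2, 229, 314 and 311 CPM in LWG geese against 370.5 to 574 in Con and 464 to 588 in HWG geese. ANGPT2, a vessel growth factor, averaged 28.3 ± 9.23 CPM in LWG against 51.7 ± 6.82 in Con and 62.4 ± 19.1 in HWG, while VEGFA averaged 59.2 ± 11.8 CPM in LWG against 42.5 ± 11.4 and 41.2 ± 1.79, and both were extreme, in opposite directions. These last 3 genes were chosen after their values were seen.

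Several of the other lower genes are receptors or signals of stromal cells and muscle. GLP2R, the receptor of the gut growth hormone GLP-2, had 10.3, 6.77, 14.1 and 10.2 CPM in LWG geese, against 21.8, 24.3, 13.5 and 27.5 in Con and 21.1, 20.9, 16.5 and 21.4 in HWG geese; LWG replicate 3 and Con replicate 3 crossed. HTR7, a serotonin receptor, had 7.58, 5.56, 7.41 and 7.52 CPM in LWG geese, against 12.6, 12.4, 13.8 and 9.65 in Con and 17.0, 14.9, 14.8 and 9.01 in HWG geese, with no overlap. PDGFD, a growth factor for stromal cells, averaged 44.1 ± 12.0 CPM in LWG against 71.2 ± 11.1 in Con and 92.2 ± 23.4 in HWG (SD, n = 4 each). ARHGAP10 (60.8 ± 8.24 CPM in LWG against 95.6 ± 18.4 and 92.5 ± 7.64), TP53I11 (30.5 ± 4.57 against 54.6 ± 12.7 and 67.3 ± 25.02), GAS2L3 (9.98 ± 1.80 against 26.0 ± 10.7 and 18.9 ± 3.93) and ODF2 (59.3 ± 9.13 against 96.1 ± 11.6 and 83.0 ± 10.4) complete the 12. Of the 5 extreme lower genes with the highest mean level, besides THBS1, MMP2 and TOP2A, FBXO32, a ubiquitin ligase of muscle wasting, was at 259 to 463 CPM in LWG geese against 450.4 to 1052 in Con and 569 to 887 in HWG geese, and C1QBP, a mitochondrial protein, at 153 to 219 CPM against 238 to 306 and 239 to 409.

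Of 19 tested contractile genes of smooth muscle, 0 passed an unadjusted p of 0.05 in either direction in LWG, 16 had a negative log2 fold change, the median was −0.29 (0.08 against Con and −0.58 against HWG), and 5 were higher in HWG than in Con at that threshold, beside 2.13% over all tested genes. ACTG2, the actin of gut smooth muscle, ran over 1201 to 5511 CPM in LWG geese, 784 to 4476 in Con and 1059 to 10957 in HWG geese. Its log2 fold change of −0.47 was 0.28 within the geese with more GATA4 and −1.17 within those with more HOXA10. MYH11, the smooth muscle myosin, had −0.28, with 0.11 within the geese with more GATA4 and −0.57 within those with more HOXA10. The summed level of the list was 12060.2 to 22704 CPM in LWG geese, against 8068 to 25273 in Con and 9508 to 45597 in HWG geese. The part of muscle content in the stromal values was not tested. Of 20 enteric nerve and glia genes, 1 was higher, CHRNA3, a nicotinic receptor subunit, and 1 lower, STMN2.

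Of 60 tested mitosis genes, all had a negative log2 fold change against the mean of the other groups and 43 passed an unadjusted p of 0.05, with a median of −0.78. Alone, 55 passed against Con and 3 against HWG, beside 6.63% and 10.6% over all tested genes in either direction. The median was −1.03 against Con, −0.53 against HWG and −0.45 for HWG over Con. BUB1B, RACGAP1 and TOP2A were the extreme ones.

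TOP2A, the topoisomerase of dividing cells, had 104, 119, 209 and 203 CPM in LWG geese, against 254, 434, 188 and 538 in Con and 270.3, 311, 195 and 274 in HWG geese. BUB1B, a spindle checkpoint kinase, had 28.1, 25.3, 41.6 and 48.7 CPM in LWG geese, against 73.5, 96.0, 48.9 and 106 in Con and 72.6, 65.7, 46.9 and 61.4 in HWG geese. LWG replicates 1 and 2 were the lowest for both, while LWG replicates 3 and 4 overlapped with Con replicate 3 and HWG replicate 3 for TOP2A, and LWG replicate 4 lay above HWG replicate 3 for BUB1B. CENPF, a kinetochore protein, averaged 24.4 ± 7.27 CPM in LWG against 72.2 ± 19.1 in Con and 36.7 ± 11.2 in HWG (SD, n = 4 each) and was not extreme.

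The median of the mitosis list was −0.15 within the geese with more GATA4 and −1.59 within those with more HOXA10. MKI67, a marker of dividing cells, had −0.56 in all 12 geese, 0.20 within the 7 geese with more GATA4 and −1.55 within those with more HOXA10. Of 40 tested replication genes, 8 were lower and 0 higher at an unadjusted p under 0.05, RFC3 and RFC4 were extreme, and the median was −0.39. Among 18 crypt stem cell and Wnt genes, 4 were lower (AXIN2, EPHB2, SOX9 and TNFRSF19), of which AXIN2, a target of Wnt signalling, was extreme at 36.9 ± 17.1 CPM in LWG against 65.1 ± 23.1 in Con and 76.6 ± 30.7 in HWG. LGR5, the marker of crypt stem cells, had a log2 fold change of −0.31.

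**Figure D4:**
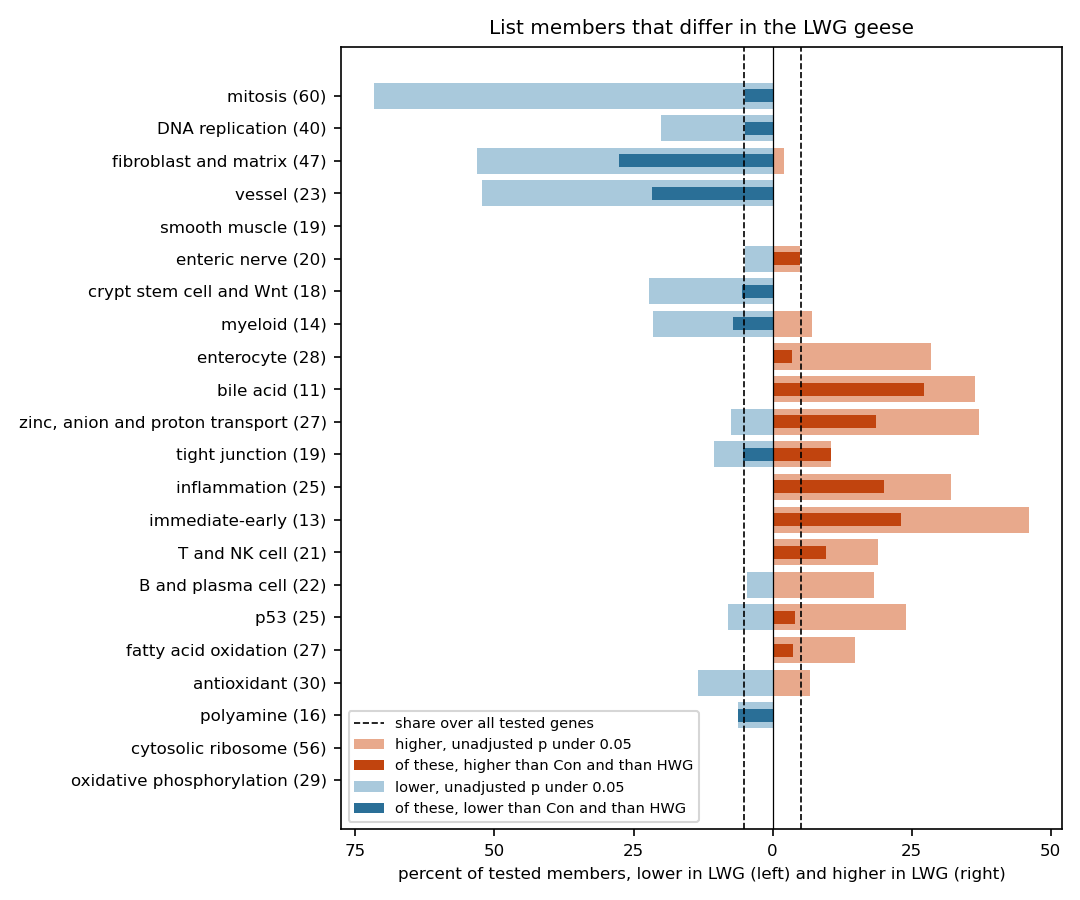
Percent of the tested members of each list (number in brackets) that were lower in LWG, drawn to the left, or higher, drawn to the right, at an unadjusted p under 0.05 against the mean of Con and HWG, with the members extreme at LWG as the narrow dark bars. Dashed lines mark the 5.15% lower and 5.16% higher over all tested genes; of 60 mitosis genes 43 were lower but 3 extreme, and of 47 fibroblast and matrix genes 25 were lower and 13 extreme.

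Of 25 tested genes of inflammatory signalling, 8 were higher at an unadjusted p under 0.05 and 0 were lower, with a median of 0.41. NOS2, IL20RA, TNFAIP3, MAP3K8 and SOCS1 were extreme. Of these, NOS2, IL20RA and MAP3K8 are among the genes the study had picked on these geese, so the count is no independent evidence. NOS2, which makes nitric oxide, had 12.8, 18.0, 56.0 and 9.28 CPM in LWG geese, against 5.74, 5.66, 8.08 and 4.95 in Con and 3.03, 9.18, 12.4 and 4.80 in HWG geese. TNFAIP3 and SOCS1, which restrain NF-kappaB and cytokine signalling, were at 91.6, 55.4, 121 and 29.0 CPM and at 10.2, 11.1, 37.3 and 9.87 CPM in LWG geese, against 30.2 to 43.9 and 5.67 to 8.16 CPM in Con geese and 29.2 to 49.5 and 5.85 to 10.7 CPM in HWG geese.

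LWG replicate 3 was the highest of the 12 geese for all 3, and without it the log2 fold changes were 0.97 for NOS2 (1.84 with it), 0.68 for TNFAIP3 (1.04) and 0.42 for SOCS1 (1.16), and the list median was 0.14. Of 13 tested immediate-early genes, which cells switch on within minutes of a stimulus, 6 were higher at an unadjusted p under 0.05 and 0 lower, with a median of 0.51. JUN, a transcription factor of this group, was without overlap, at 161, 160.0, 203 and 155 CPM in LWG geese against 101 to 131 in Con and 103 to 149 in HWG geese, and FOS and DUSP1 were extreme. FOS was at 55.3 CPM in LWG replicate 2 and at 7.69 to 16.6 in the remaining LWG geese; the log2 fold change of 1.27 was 0.43 without LWG replicate 2.

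Of 21 tested T and NK cell genes, 4 were higher and 0 lower, and IL2RB and SLA2 were extreme. The median was 0.38, or 0.15 without LWG replicate 1. The summed level was 797 to 1306 CPM in LWG geese, against 540.1 to 981 in Con and 653 to 920.4 in HWG geese. Among B cell genes, PAX5, the master regulator of B cells, had 36.0, 0.911, 0.511 and 0.227 CPM in LWG geese, against 0.301, 1.38, 0.152 and 1.21 in Con and 1.195, 1.55, 1.26 and 7.05 in HWG geese. Its log2 fold change of 2.69 was −1.39 without LWG replicate 1, and the median of the 22 B and plasma cell genes was 0.35 with and −0.43 without that goose. IKZF3 and BLK had log2 fold changes of 0.42 and 0.32 without it. JCHAIN, the joining chain of secreted antibodies, was lower (log2 fold change −0.97), and the summed level of the list was 2804 to 4197 CPM in LWG geese, against 2949.7 to 7373 in Con and 4684 to 7163 in HWG geese. CCR7, a homing receptor of lymphocytes, was at 54.5 CPM in LWG replicate 1 and at 13.0 to 16.9 in the other LWG geese.

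Of 14 myeloid genes, 3 were lower (CSF3R, MARCO and MRC2) and HPGDS higher, and CSF3R, the receptor of a granulocyte growth factor, was extreme. Interferon response genes had 2 of 14 members higher, IRF7, which was extreme, and IFIH1, with a median of 0.02. Of 25 tested p53 targets and checkpoint genes, 6 were higher (CDKN1A, PMAIP1, FAS, TP53I3, APAF1 and BTG2) and 2 lower (GADD45G and CHEK2), with PMAIP1 the extreme one and a median of 0.15.

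Of the 5 extreme higher genes with the highest mean level, 2 are FABP6 and TMIGD1 and the other 3 are AOX1, an aldehyde oxidase, at 544 ± 173 CPM in LWG against 312 ± 123 in Con and 249 ± 96.1 in HWG, RNF128, a ubiquitin ligase, at 449.9 ± 194 CPM against 246 ± 123 and 181 ± 69.2, and DHRS11, a steroid dehydrogenase, at 406 ± 188 CPM against 223 ± 43.2 and 231 ± 114 (SD, n = 4 each). The log2 fold change of DHRS11 was 0.84, or 0.52 without LWG replicate 4.

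All 27 tested fatty acid oxidation genes had a positive log2 fold change, with a median of 0.36 (0.17 without LWG replicate 4), but 4 passed an unadjusted p of 0.05 (PPARA, PPARGC1A, CPT1A and PDK4), and PPARGC1A, a coactivator of mitochondrial genes, was the extreme one, at 9.20, 18.3, 19.7 and 31.6 CPM in LWG geese against 8.70 to 16.2 in Con and 8.61 to 11.3 in HWG geese (log2 fold change 0.83, or 0.49 without LWG replicate 4). PPARA, the receptor that senses fatty acids, was at 47.6 ± 15.4 CPM in LWG against 39.1 ± 21.0 in Con and 16.1 ± 7.37 in HWG, and passed an unadjusted p of 0.05 against HWG and not against Con.

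SMOX, which oxidises the polyamine spermine, was the member of 16 polyamine genes that differed, at 18.5, 8.83, 12.6 and 16.1 CPM in LWG geese against 26.0, 19.5, 18.8 and 19.0 in Con and 45.1, 25.8, 22.5 and 29.0 in HWG geese, with no overlap and a narrow gap. SLC40A1 (ferroportin), which exports iron, was lower without overlap, at 141, 151, 85.0 and 81.0 CPM in LWG geese against 152 to 171 in Con and 165 to 218 in HWG geese. The vitamin D receptor VDR and its partner RXRA were higher, at 51.8 ± 14.4 CPM in LWG against 33.4 ± 4.16 in Con and 37.5 ± 8.92 in HWG, and at 20.6 ± 4.09 CPM against 14.3 ± 2.12 and 14.4 ± 1.46; the log2 fold change of VDR was 0.55, or 0.34 without LWG replicate 4. CALB1, the calcium carrier of the upper gut, was at 13.7, 17.9, 19958 and 51.7 CPM in LWG geese. It was at 4515, 411, 9301 and 610 CPM in Con and at 57.0, 9.59, 998 and 12.2 CPM in HWG geese. Its log2 fold change was 2.33 with and −5.17 without LWG replicate 3.

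Of 30 antioxidant genes, 2 were higher (SLC7A11 and GGT1), 4 lower (HMOX1, GPX8, PRDX4 and TXNRD3) and 0 extreme, with a median of −0.04. SLC7A11, the cystine carrier, was at 9.77 CPM in LWG replicate 1 and at 0.443 to 1.02 in the other LWG geese. Its fold change of 1.71 on the log2 scale was −0.42 without that goose. Among 56 cytosolic ribosome and 29 oxidative phosphorylation genes, 0 passed an unadjusted p of 0.05 in LWG, with medians of −0.13 and −0.05. Of 23 heat shock genes, HSPA8 was higher and HSF2 lower and extreme, and of 15 clock genes, CRY1 and TEF were higher and 0 were extreme. The lists of red blood cell genes (0 of 4), of gut position factors (0 of 17) and of exocrine pancreas genes (0 of 1) had no member past an unadjusted p of 0.05, and that of fat cell genes had PCK1 higher and G0S2 lower among 8.

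GATA4 and HOXA10, markers of position along the gut, varied between geese within each group, and the labels do not give the sampled position. GATA4 was at 0.437, 0, 49.8 and 43.6 CPM in LWG geese, against 86.6, 2.66, 69.8 and 0.0817 in Con and 27.5, 36.6, 73.8 and 0.0655 in HWG geese, and HOXA10 at 5.75, 30.8, 0.128 and 0 CPM, against 0, 10.01, 0.101 and 10.5 and 0.0664, 0.166, 0 and 35.6. Each group thus held geese of both kinds, 2 of 4 in LWG, 2 of 4 in Con and 1 of 4 in HWG having more HOXA10. Of the 411 extreme genes tested in both sets of geese, 410 had the same direction within the 7 geese with more GATA4 and within the 5 with more HOXA10, among them all 24 genes named for the smallest p. As each set shares its geese with the fit that chose the genes, this agreement is a description and no separate evidence. Within the geese with more GATA4, 101 of the 411 genes stayed extreme. No such count is given for the other set, where HWG had 1 goose.

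The size differed between the sets for some. The log2 fold change of CLCN1 was 0.63 in the geese with more GATA4 and 2.75 in those with more HOXA10, and that of SLC5A8 2.73 and 6.26, while those of THBS1 were −0.97 and −0.97. For the lists, the enterocyte median was 0.65 and 1.47, the vessel median −0.72 and −0.50, and the T and NK cell median 0.10 and 0.68. The difference between the sets was not tested.

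**Figure D5:**
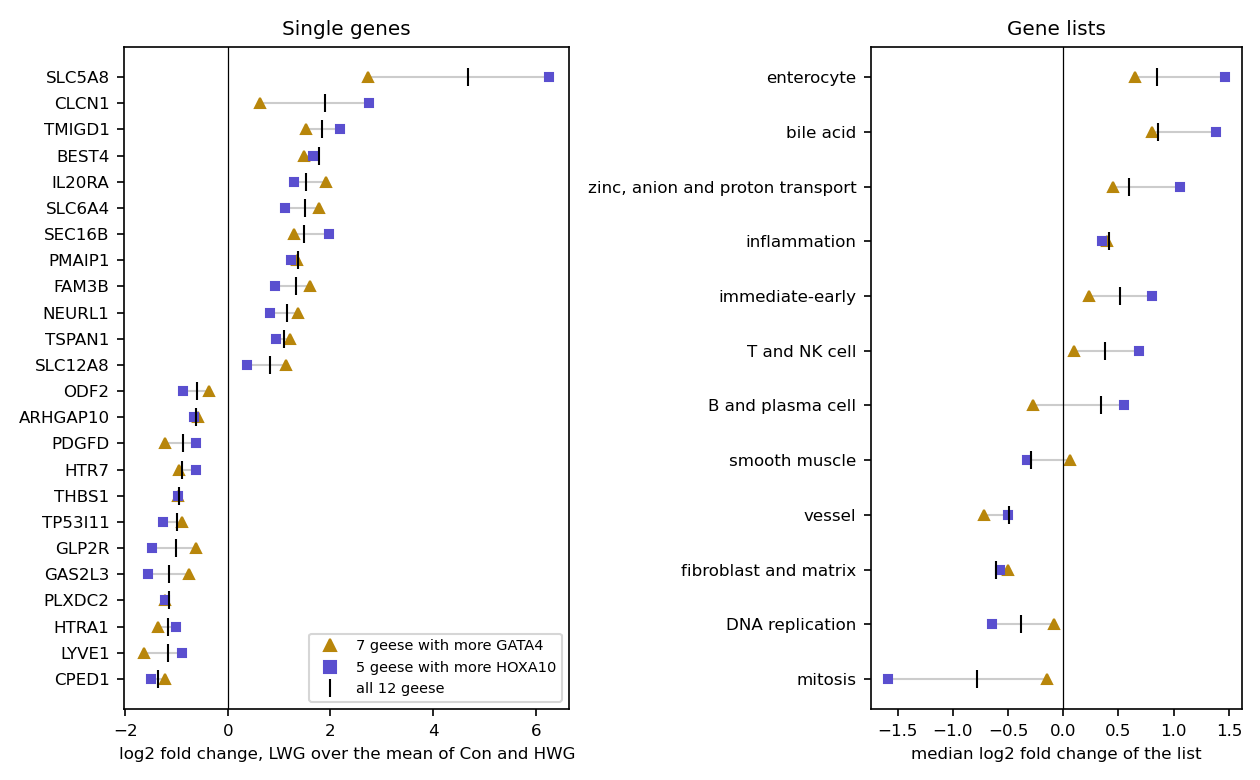
Log2 fold change of LWG over the mean of Con and HWG for the 24 genes with the smallest p (left) and median of each list (right), in the 7 geese with more GATA4 (triangles), the 5 with more HOXA10 (squares) and all 12 (bars). All 24 genes keep their direction in both sets, while the mitosis median is −0.15 in the geese with more GATA4 and −1.59 in those with more HOXA10, and those of the B and plasma cell and smooth muscle lists change sign.

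The study's Results named these 25 genes for LWG against Con on the same geese, so their values here are no independent evidence. Its Discussion also named FABP6. No direction was taken from the study, and those given are of the deposited counts under the group labels. The paper's Results list the 15 genes below as down-regulated and the 10 as up-regulated in LWG, the opposite of all but CDKL1 here. Whether the labels or the sign of that comparison account for this was not tested. For MMRN1, one of the 10, the paper's Discussion gives the other direction, down-regulated. The named genes are part of those the paper counted, which also had to pass a fold change cutoff. Of the 15 named from SLC37A1 to NOS2, 13 were also extreme at LWG and all 15 were higher than the mean of Con and HWG at an unadjusted p under 0.05, with a median of 1.53, and 5 did not overlap. Of the 10 named from CENPF to KIF20B, 9 were lower and CDKL1 was higher, 6 were extreme and 5 did not overlap, with a median of −1.02. Over all tested genes, 0.296% were higher and 0.511% lower in LWG without overlap. The median log2 fold change of HWG over Con was 0.12 for the 15 and −0.08 for the 10.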

How the data were processed

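RNA from the jejunum of 12 geese (LWG, Con and HWG, 4 each) was sequenced as paired reads. Per the paper and the submitters' processing notes, the authors trimmed reads with fastp, aligned them to a Sichuan white goose assembly with HISAT2, quantified with StringTie and tested with edgeR; versions are not given in the sources used here. The deposited table held whole-number counts per gene, not normalized, and FPKM values computed by the authors. The count 4 occurred 3148 times in the table and the counts 3 and 5 occurred 1250 and 1052 times, so 1 count is not taken as 1 read pair and no counting interval is given. The authors' own comparison columns were not used.

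Counts were fitted with edgeR 4.0.16 in R 4.3.3 (TMM, filterByExpr, quasi-likelihood F-test) in 1 fit of all 12 libraries, with p-values adjusted by the Benjamini-Hochberg method over the 14863 genes tested. The contrasts were LWG minus the mean of Con and HWG, LWG minus Con, LWG minus HWG and HWG minus Con. The fit was tested on simulated data. The labels do not say more of the replicates than their number, so p-values measure the spread between these geese. No 2 libraries were alike (smallest chi-square per degree of freedom 87.2 over 66 pairs).

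Genes named were the 12 with a symbol and a mean of at least 1 CPM with the smallest p in each direction, the 5 extreme genes of highest mean level in each direction, up to 3 members of each list with the smallest p under 0.05, and GATA4 and HOXA10. Most others are said to be chosen after their values were seen or are listed as members that passed. SLC10A2, EPCAM, LGR5, MKI67, ACTG2, MYH11 and CALB1 were added by hand outside this rule. They are list members that did not pass an unadjusted p of 0.05 against the mean of Con and HWG. The result of 1 gene that the rule would name is not reported here. The members and lists were chosen with earlier results of these data known. Alternatives were DESeq2 1.42.0, limma 3.58.1 on log2(FPKM + 0.1) and log2(FPKM + 1), DESeq2's size factors in edgeR, no filter, a mean FPKM of at least 1, a robust prior, a replicate block, a covariate (GATA4 minus HOXA10), counts divided by 4, Con and HWG pooled, each library left out and, added after seeing the data, fits within the geese with more GATA4 or more HOXA10. Tables and plots were made with Python 3.11.15, pandas 2.3.3, numpy 2.4.6 and matplotlib 3.10.9. Sequences and coordinates were not used here.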

Additional observations from a re-analysis of the deposited data

Results flagged for a closer look

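For 114 named genes, the 4 levels of each group were searched for a goose far from the other 3, by Dixon's test at the 95% level, and 30 of 342 groups (8.77%) held such a goose. The test's rate of about 1 in 20 groups is for normal and independent values. Here CPM were not transformed, and the genes share the same geese and were mostly picked on their values. The share is therefore a description and not a measured excess.

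Among LWG geese, the goose apart was found for HTR7 at 5.56 CPM in replicate 2 (others 7.41 to 7.58), TNFRSF19 at 15.7 CPM in replicate 1 (others 10.98 to 11.3) and CCR7 at 54.5 CPM in replicate 1 (others 13.0 to 16.9). In the LWG group, this also held for PAX5 at 36.0 CPM in replicate 1 (others 0.227 to 0.911), SLC7A11 at 9.77 CPM in replicate 1 (others 0.443 to 1.02) and PPARA at 24.5 CPM in replicate 3 (others 54.7 to 56.2). In the LWG group, this also held for JUN at 203 CPM in replicate 3 (others 155 to 161), FABP1 at 3351 CPM in replicate 4 (others 348 to 779) and CALB1 at 19958 CPM in replicate 3 (others 13.7 to 51.7). In the LWG group, this also held for SOCS1 at 37.3 CPM in replicate 3 (others 9.87 to 11.1).

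Among Con geese, the goose apart was found for NEURL1 at 21.7 CPM in replicate 4 (others 11.2 to 12.2), SEC16B at 46.6 CPM in replicate 3 (others 20.6 to 24.3) and SMOX at 26.0 CPM in replicate 1 (others 18.8 to 19.5). In the Con group, this also held for FOS at 19.2 CPM in replicate 3 (others 5.84 to 7.01), PCK1 at 1299.7 CPM in replicate 3 (others 96.0 to 241) and LOC106035109 at 13.3 CPM in replicate 3 (others 9.18 to 9.56). In the Con group, this also held for FGF19 at 71.4 CPM in replicate 3 (others 1.08 to 3.61).

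Among HWG geese, the goose apart was found for SLC5A8 at 3.38 CPM in replicate 2 (others 0.266 to 0.677), BEST4 at 3.82 CPM in replicate 4 (others 1.37 to 1.72) and GLP2R at 16.5 CPM in replicate 3 (others 20.9 to 21.4). In the HWG group, this also held for AOX1 at 392 CPM in replicate 3 (others 189.7 to 209.8), MYO1A at 204 CPM in replicate 3 (others 82.1 to 98.2) and PAX5 at 7.05 CPM in replicate 4 (others 1.195 to 1.55). In the HWG group, this also held for GGT1 at 89.4 CPM in replicate 3 (others 6.15 to 19.2), PCK1 at 905 CPM in replicate 3 (others 79.6 to 116) and HOXA10 at 35.6 CPM in replicate 4 (others 0 to 0.166). In the HWG group, this also held for FGF19 at 18.8 CPM in replicate 3 (others 1.37 to 1.79), FABP1 at 972 CPM in replicate 3 (others 24.2 to 90.4) and CALB1 at 998 CPM in replicate 3 (others 9.59 to 57.0). In the HWG group, this also held for PECAM1 at 103 CPM in replicate 3 (others 131 to 133).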

How the results depend on the processing

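At an adjusted p under 0.05, 0 genes were called higher or lower in edgeR, also with DESeq2's size factors, no filter, a mean FPKM of at least 1, a robust prior, counts divided by 4 or Con and HWG pooled, and 0 in limma. DESeq2 called 45 higher and 45 lower. With GATA4 minus HOXA10 as a covariate, 5 and 3 were called, 1247 genes were higher at an unadjusted p under 0.05, 421 were extreme and higher, and HWG and Con differed for 552 higher and 580 lower genes. Limma on log2(FPKM + 0.1) put the median of all genes at −0.12, with 517 higher and 1323 lower and 389 extreme and lower; on log2(FPKM + 1), 1312 were lower and 363 extreme and lower. With a mean FPKM of at least 1, 193 genes were lower in HWG than in Con. The cause of these shifts was not tested.

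Within the geese with more GATA4, 488 genes were lower, 123 extreme and higher, 475 higher in HWG than in Con, and 932 and 996 without overlap. Within those with more HOXA10, 210 and 101 were called, 1308 were higher, 542 and 345 extreme, 569 and 842 differed between HWG and Con, and 2352 and 2589 had no overlap, as fewer geese overlap less; HWG had 1 goose there, assumed to vary like the others.

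Leaving out 1 library at a time, 538 to 1263 genes were higher and 574 to 1160 lower, 103 to 407 and 151 to 431 were extreme, 0 to 3 and 0 to 1 were called, 48 to 123 and 83 to 230 had no overlap, and HWG and Con differed for 192 to 838 and 173 to 815. The calls came without Con replicate 3 (CPED1, LOC106035109, TMIGD1) and without HWG replicate 3 (LOC106042592, TMIGD1, LOC106035109, HTRA1).

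With the replicate number as a block, 11 genes were called higher and 5 lower and 411 were extreme and higher. Taken over all numbers, same-numbered libraries showed no clear tendency to deviate together (12 pairs, correlations −0.28 to 0.38, mean 0.04 against −0.01 for other pairs). Of 12 libraries, 4 correlated best with their own number. A pairing by number was thus not shown, but this check cannot exclude one, as the geese also differed in markers of gut position. Con replicate 3 and HWG replicate 3 were both the goose apart for PCK1 and for FGF19. Leaving out either gave more genes higher in LWG at an unadjusted p under 0.05 in edgeR, 1143 and 1263 against 767. Whether their shared number matters was not tested.

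Of the named genes' values under the alternatives, 2740 kept direction and side of the threshold, 86 passed it and 20 reversed. The log2 fold change of CFTR was −0.0027 and −0.000697 in limma, −0.084 with more GATA4 and, leaving out 1 library, −0.043 (without LWG replicate 2) to 0.31. The log2 fold change of CALB1 was −1.38 and −1.33 in limma, −0.70 with the block, −2.34 with more HOXA10 and, leaving out 1 library, −5.17 (without LWG replicate 3) to 3.995. The log2 fold change of HOXA10 was −0.64 with the covariate, −0.084 with more HOXA10 and, leaving out 1 library, −1.80 (without LWG replicate 2) to 3.81. With more GATA4, PAX5 took −0.59, SLC7A11 −0.040, SLC10A2 −0.13, ACTG2 0.28, MYH11 0.11 and MKI67 0.20. Leaving out 1 library, PAX5 took −1.39 and SLC7A11 −0.42 (both without LWG replicate 1) to 3.21 and 2.05.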
